A study of Mus musculus with 9 samples.

Results

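The genes described here make, carry and remodel the ceramides and related lipids of the skin barrier. They are 39 genes given as a fixed list, of 38203 genes in the deposited table of mouse epidermis at E18.5, shortly before birth. The list was drawn up by gene function, with earlier results of these data known. The table holds 34 of them under the listed symbol, and the 5 ceramide synthases Cers2 to Cers6 stand there under the older names Lass2 to Lass6 and were matched by gene identifier.

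The libraries came from individual embryos of a mixed C57BL6/129Sv background, carrying germline knockouts of the epithelial splicing regulators Esrp1 and Esrp2. WT embryos (2 libraries) had both genes. KO embryos (3 libraries) lacked Esrp1 and kept both Esrp2 alleles, KH embryos (2 libraries) lacked Esrp1 and kept 1 Esrp2 allele, and DKO embryos (2 libraries) lacked both. All 3 mutant genotypes therefore share the loss of Esrp1, which is missing from every cell of the embryo and not only from keratinocytes. The control libraries carry the label WT, although the protocol text of the samples lists embryos without Esrp2 in their place. Esrp2 was at 118 and 136 FPKM in them, against 0.0843 and 0.0463 in DKO, so the label was followed. Epidermis of the trunk, from the basal to the cornified layer, was separated from the dermis after trypsin.

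The cornified layer of the epidermis is sealed by lamellae of ceramides, cholesterol and free fatty acids. Keratinocytes build a sphingoid base, join it to a fatty acid of very long chain to form ceramide, and store ceramide as glucosylceramide and sphingomyelin in lamellar bodies. These are loaded with the help of the transporter Abca12, released at the granular layer, and turned back into ceramide by hydrolases outside the cell. Inherited loss of several of these genes, among them ABCA12, ALOX12B, PNPLA1 and ABHD5, causes ichthyosis, a scaling disorder of the skin, and loss of acid sphingomyelinase, encoded by Smpd1, causes Niemann-Pick disease.

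Levels are given in FPKM, the number of fragments scaled to transcript length and to the size of the library, as the authors estimated it. FPKM summed to between 713318 and 1130713 per library, and between 11851 and 12228 genes reached 1 FPKM. The table holds no read counts, so the depth behind each value is unknown. Esrp2 stood at 118 and 136 FPKM in WT, and at 0.0843 and 0.0463 in DKO. Esrp1 was at 119 and 142 FPKM in WT and between 18.2 and 55.1 in the 7 mutant libraries, and its gene level includes exons outside the deleted part. Defining markers of adipocytes and endothelial cells were near 0, summing to at most 0.108 and 0.346 FPKM per library over 6 genes each, whereas the dermal fibroblast markers summed to between 44.2 and 150 FPKM, most of it from Dcn. By Xist and the Y-linked genes, the 3 KO embryos were female, the DKO and KH embryos male, and WT held a male (replicate 1) and a female (replicate 2). In DKO against KO and in KH against KO, genotype and sex therefore cannot be told apart.

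Of the 39 genes, Smpd1 was the only gene called in a comparison of genotypes, and it was lower in DKO than in WT epidermis. A gene was called when its limma p, adjusted by Benjamini-Hochberg over 16897 tested genes, was below 0.05 and its mean FPKM differed by more than 2-fold. All 39 genes had passed the filter on low values, a mean above 0.1 FPKM in at least 1 genotype. In DKO against WT 1 of 39 genes was called, beside 0.728% of all tested genes. None of the 39 was called in KO against WT or in KH against WT, where 0.0296% of all genes were called in each, nor in DKO against KO (0.639% of all genes), in DKO against KH (0.426%) or in KH against KO (0%).

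Smpd1 encodes acid sphingomyelinase, which cuts sphingomyelin to ceramide, and lies on the plus strand of chromosome 7 between 105554360 and 105558389 (mm10, GENCODE M21). It was at 27.6 and 15 FPKM in DKO, 169 and 150 in WT, 67.5, 138 and 170 in KO, and 64.7 and 142 in KH. Both DKO libraries lay below all 7 others, and the mean was 21.3 ± 8.87 FPKM in DKO (SD, n = 2) against 159 ± 13.5 in WT (SD, n = 2), a 7.47-fold difference. On the scale of log2(FPKM + 1) the difference was -2.90 ± 0.51 (SE; 95% interval -4.05 to -1.75; limma adjusted p = 0.0468). The difference from KO was -2.46 ± 0.46 (SE; limma adjusted p = 0.074) and that from KH -2.18 ± 0.51 (SE; limma adjusted p = 0.228), neither past the threshold. KO and KH differed from WT by -0.44 ± 0.46 and -0.72 ± 0.51 (SE; limma adjusted p = 0.861 and 0.98). The call of DKO against WT lay close to the threshold. Without the filter on low values it was lost (limma adjusted p = 0.314), as it was in limma without an intensity trend (0.0815). The same held with libraries blocked by their replicate number in the titles (0.101) or descriptions (0.195). The call was also lost on leaving out DKO replicate 1 or 2, WT replicate 1 or 2, KH replicate 1 or KO replicate 2, while the fold change kept its sign.

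**Figure D1:**
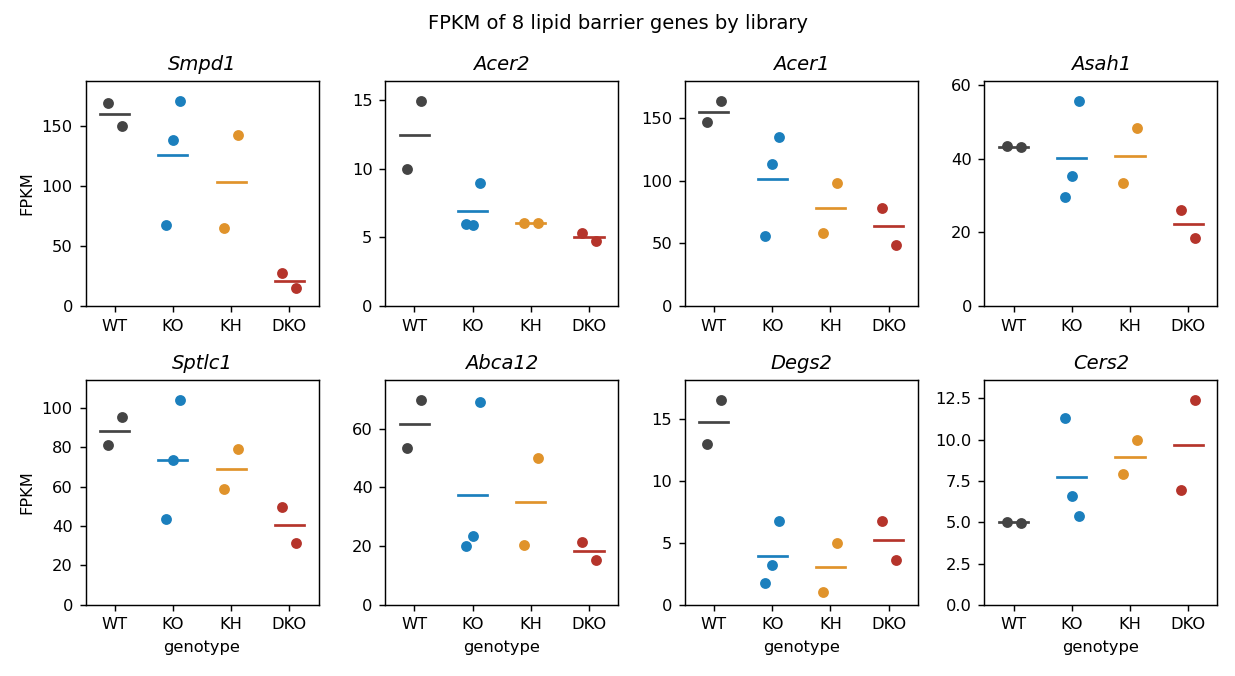
FPKM (vertical axes, from 0) of 8 genes in each of the 9 libraries, by genotype (horizontal axes), with a point for each library and a line at the mean. The 2 DKO libraries of Smpd1, at 27.6 and 15 FPKM, lie below all 7 others, Degs2 is lower in all 7 mutant libraries than in WT, and Cers2 is lowest in the 2 WT libraries.

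Most of the other genes had a lower mean in DKO than in WT, without passing the test. The fitted difference of DKO from WT was negative for 30 of the 39 genes and positive for 9, with a median of -0.56 on the log2 scale, beside a median of 0.02 over all tested genes. It was negative for 46.8% of all tested genes and for 50.4% of those with a mean of at least 5 FPKM. At an unadjusted limma p below 0.05, 9 genes were lower in DKO, beside 7.6% of all tested genes, and none was higher, beside 6.15% of all genes. In a fit of only these 2 genotypes the 9 became 18, but the share of all genes below that p in this fit is not given here. The 18 therefore has no matching background, and the 7.6% belongs to the main fit. Fewer than 9 genes were lower at that p when DKO replicate 2 or WT replicate 2 was dropped, which left a single library of that genotype. Dropping DKO replicate 1 moved the median to -0.83, and dropping DKO replicate 2 moved it to -0.32. Both DKO libraries lay below both WT libraries in 27 of the 39 genes, and this held for 26.4% of all genes. Both lay above WT in 2, the ceramide synthases Cers2 and Cers4, and in 27.8% of all genes. Both DKO libraries were below all 7 others for Acer2, Asah1, Cers6 and Smpd1, 4 genes of the list against 5.56% of all genes. For 6 genes, Acer1, Acer2, Degs2, Elovl4, Psap and Sgpl1, both WT libraries were above all 7 mutant libraries, against 5.08% of all genes. Fitted differences of DKO from WT were also negative for all 7 markers of the granular layer and all 6 of the spinous layer, with medians of -0.69 and -0.78. Those of basal keratinocyte markers were negative for 2 of 6, with a median of 0.18. Melanocyte markers stood the other way. Their sum was 94.9 and 208 FPKM in DKO against 47.8 and 43.7 in WT, all 6 had both DKO libraries above WT and 4 were higher at an unadjusted limma p below 0.05, and their part in the differences above was not tested.

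**Figure D2:**
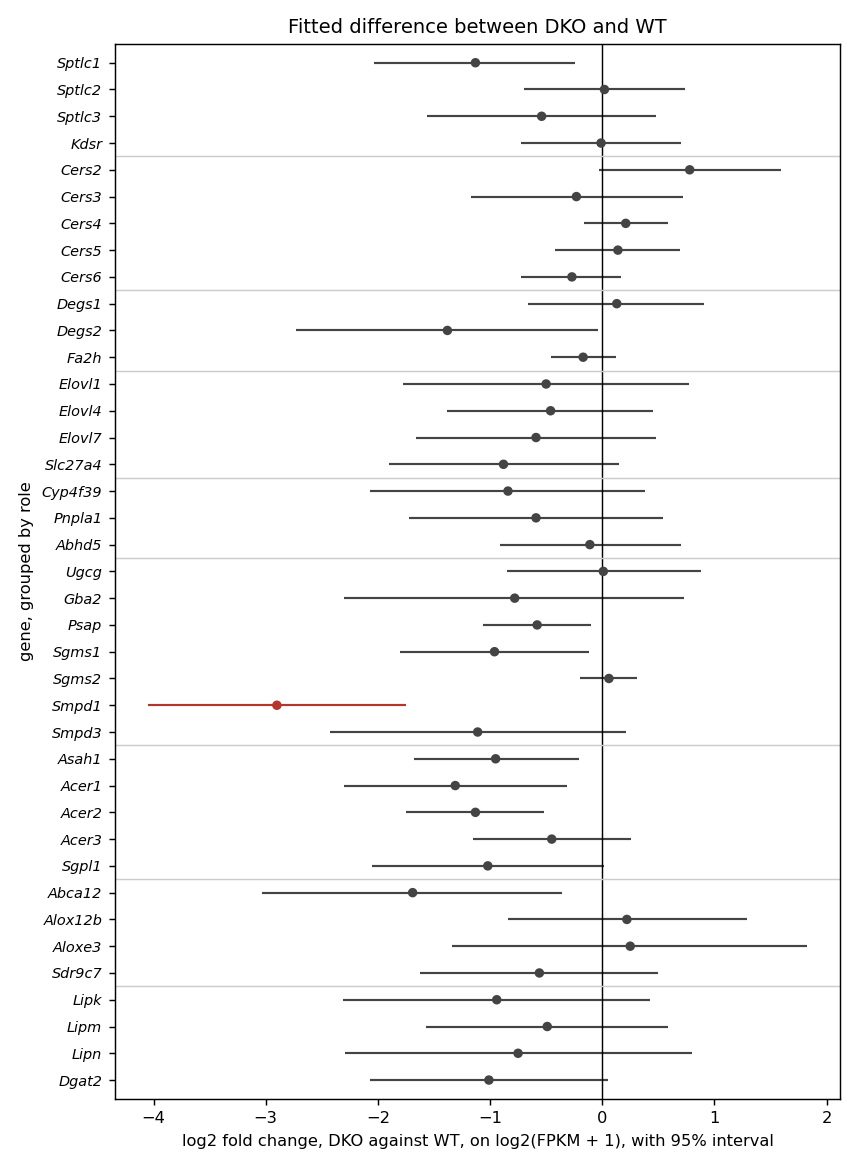
Fitted difference of DKO from WT on the log2(FPKM + 1) scale (horizontal axis) for each of the 39 genes (vertical axis, grouped by role), with its 95% interval from limma. Points left of the line at 0 are lower in DKO. Smpd1, in red, at -2.90, is the only gene called.

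Levels of the list moved from library to library with markers of the granular layer, and with those of other layers. A sum of 7 markers of the granular layer (Lor, Flg2, Casp14, Cdsn, Klk7, Asprv1 and Hrnr) was 14704 and 6793 FPKM in DKO, 16363 and 15464 in WT, 6974, 16486 and 17196 in KO, and 6179 and 17391 in KH. The sum, most of it from Lor and Asprv1, was thus low in DKO replicate 2, KH replicate 1 and KO replicate 1, 1 library of each mutant genotype. The same 3 libraries had the lowest sums of spinous markers (35252, 38461 and 31893 FPKM, against 60821 to 85782 in the others), the highest of basal keratinocyte markers (7333, 7509 and 8463, against 4097 to 6563), and the lowest FPKM totals (771857, 713318 and 734747). The median of the 39 genes, relative to the WT mean on the log2 scale, was lowest in the same libraries, at -0.83 in DKO replicate 2, -0.76 in KH replicate 1 and -1.09 in KO replicate 1. In the other mutant libraries it was -0.32 (DKO replicate 1), -0.02 (KH replicate 2), -0.29 (KO replicate 2) and 0.05 (KO replicate 3). KH replicate 1 was below KH replicate 2 in 35 of the 39 genes, or 89.7%, against 53.2% of all genes, and DKO replicate 2 was below DKO replicate 1 in 32, or 82.1%, against 52.2% of all genes. In bulk tissue, fewer granular cells and less of these RNAs per cell cannot be told apart.

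**Figure D3:**
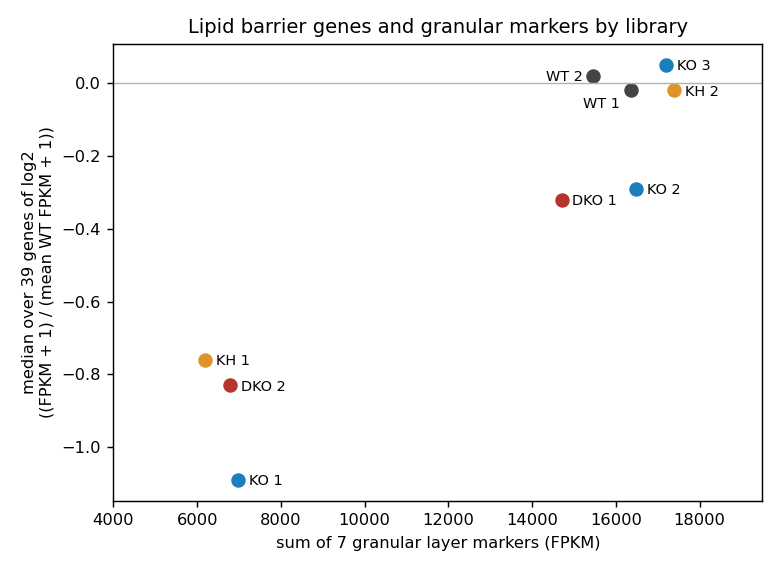
Median over the 39 genes of the log2 level relative to the WT mean (vertical axis) against the summed FPKM of 7 granular layer markers (horizontal axis), with a point for each of the 9 libraries, coloured by genotype. The 3 libraries with marker sums between 6179 and 6974 FPKM have medians between -1.09 and -0.76, whereas the other 6 have medians between -0.32 and 0.05.

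With the 3 low libraries left out, 29 of the 39 genes had a negative difference of DKO from WT, and the median was -0.32. DKO and KH then held 1 library each, whose spread was assumed to be that of the other genotypes. With the granular sum as a covariate, 26 genes had a negative difference and the median was -0.11. At an unadjusted limma p below 0.05, 9 genes were lower and 1 higher, with no share of all genes from this fit to set beside them. The granular sum was itself lower on average in DKO than in WT, at 10749 against 15913 FPKM. The covariate can therefore also remove part of a difference between genotypes, and what the smaller median reflects was not tested. Smpd1 differed by -2.48 ± 0.22 (SE; limma adjusted p = 0.0646) without the 3 libraries, and by -2.35 ± 0.17 (SE; limma adjusted p = 0.000817) with the covariate. Both of these settings were chosen after the data had been seen.

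A set of 5 windows of DNA around transcription starts is shown, for Smpd1 as the called gene, for Acer1, Acer2 and Abca12 as genes among the lowest p of the list, and for Sgms1 as the only gene of the list with a full Grainyhead motif. Asah1 and Sptlc1, whose p lay below that of Abca12, are not shown. Grainyhead-like factors, AP-1 and Klf factors are known regulators of keratinocyte differentiation. Each window runs from 250 bases before to 50 bases after the start (RefSeq, build GRCm38.p6), 5′ to 3′ on the strand of the gene. Capitals mark matches on either strand to AACNNGTT (Grainyhead), TGANTCA (AP-1) or CCNCNCCC (Klf).
Smpd1 (chr7:105554110-105554409, plus strand): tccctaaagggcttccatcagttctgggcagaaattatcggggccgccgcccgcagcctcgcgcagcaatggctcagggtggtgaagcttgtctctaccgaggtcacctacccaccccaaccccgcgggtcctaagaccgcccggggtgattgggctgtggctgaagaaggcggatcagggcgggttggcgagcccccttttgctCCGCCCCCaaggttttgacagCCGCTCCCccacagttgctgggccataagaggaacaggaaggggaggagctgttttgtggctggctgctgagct
Acer1 (chr17:56982077-56982376, minus strand): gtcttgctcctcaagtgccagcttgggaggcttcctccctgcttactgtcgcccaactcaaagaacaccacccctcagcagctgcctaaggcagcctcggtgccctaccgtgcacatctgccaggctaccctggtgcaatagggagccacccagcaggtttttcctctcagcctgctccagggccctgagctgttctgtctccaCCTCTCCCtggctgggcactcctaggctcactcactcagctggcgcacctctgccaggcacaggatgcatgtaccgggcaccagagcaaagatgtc
Acer2 (chr4:86874164-86874463, plus strand): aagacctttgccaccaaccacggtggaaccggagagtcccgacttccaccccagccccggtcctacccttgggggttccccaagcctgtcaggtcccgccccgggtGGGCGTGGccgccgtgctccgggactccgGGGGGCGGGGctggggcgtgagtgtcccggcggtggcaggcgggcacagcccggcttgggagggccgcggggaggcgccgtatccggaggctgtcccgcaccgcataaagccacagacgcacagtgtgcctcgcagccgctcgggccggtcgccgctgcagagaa
Abca12 (chr1:71414861-71415160, minus strand): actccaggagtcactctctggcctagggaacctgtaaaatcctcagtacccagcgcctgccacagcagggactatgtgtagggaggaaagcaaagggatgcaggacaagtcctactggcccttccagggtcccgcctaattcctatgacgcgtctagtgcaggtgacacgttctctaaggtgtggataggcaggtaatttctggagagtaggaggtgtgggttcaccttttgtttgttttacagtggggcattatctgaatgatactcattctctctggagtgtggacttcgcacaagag
Sgms1 (chr19:32349267-32349566, minus strand): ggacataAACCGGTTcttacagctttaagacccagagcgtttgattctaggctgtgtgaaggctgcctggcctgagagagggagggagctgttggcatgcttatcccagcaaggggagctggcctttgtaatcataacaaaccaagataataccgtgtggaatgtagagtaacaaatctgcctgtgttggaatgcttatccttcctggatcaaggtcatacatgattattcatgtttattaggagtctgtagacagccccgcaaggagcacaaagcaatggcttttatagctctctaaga
Smpd1, Acer1 and Acer2 held matches to the Klf letters alone, Abca12 held none of the 3 motifs, and the Sgms1 window, at 1 of several starts of that gene, held AACCGGTT.

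The 33 genes of the list found in this source had 45 windows. The Klf letters occurred in 34 of the 45, and in 49.5% of all 32851 windows of the same length. AP-1 letters occurred in 6 of the 45, at Acer3, Lipn, Psap, Sgms1 and Sgms2, and in 7.81% of all windows. AACNNGTT occurred in 1, at Sgms1, and in 4.2% of all windows, and its full form AACCGGTT in 0.146%. A match describes letters and not a bound site.

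**Figure D4:**
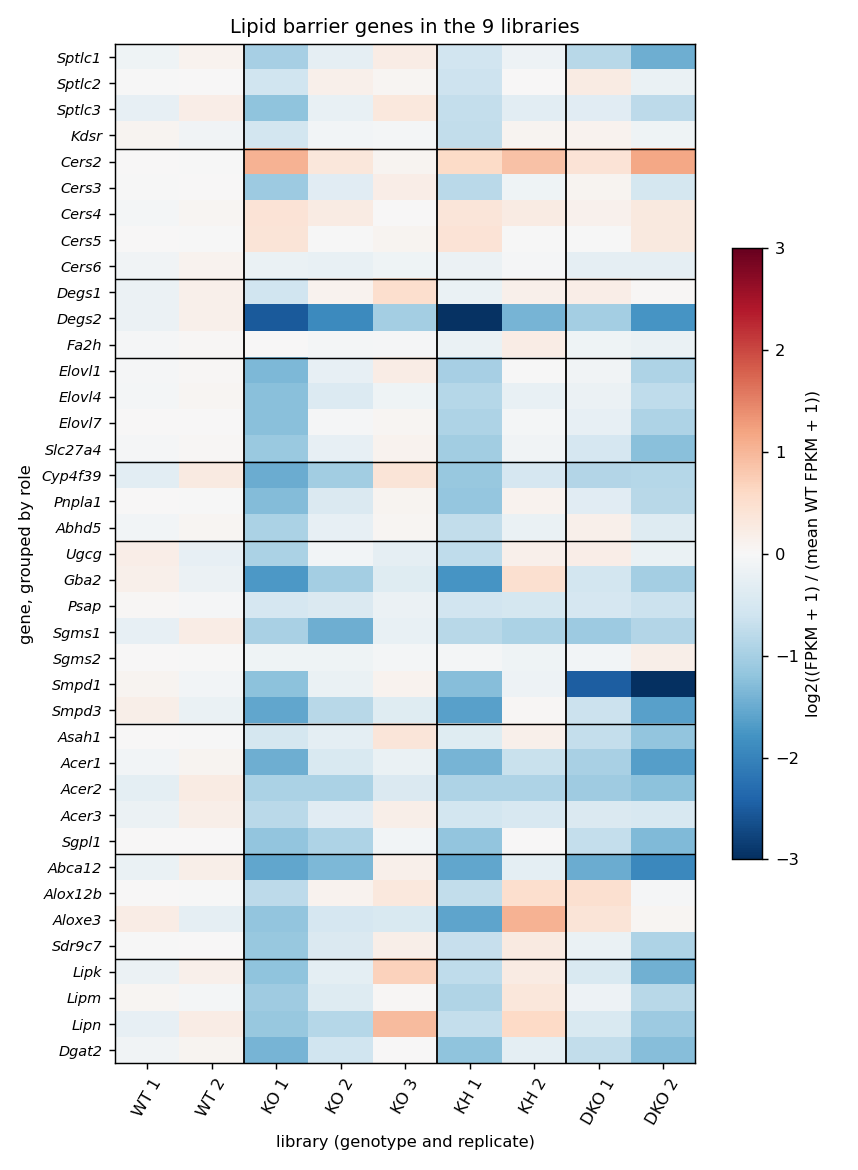
Level of each of the 39 genes (vertical axis, grouped by role) in the 9 libraries (horizontal axis), as the log2 ratio of FPKM + 1 to that of the WT mean, blue where lower and red where higher. KO 1, KH 1 and DKO 2 are blue in most rows, Smpd1 is darkest in the 2 DKO libraries, and Cers2 is red in all 7 mutant libraries.

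Synthesis of the sphingoid base begins with serine palmitoyltransferase, whose subunits are encoded by Sptlc1, Sptlc2 and Sptlc3, and goes on with the reductase Kdsr. Sptlc1, the subunit common to all forms of the enzyme, was at 49.5 and 31.6 FPKM in DKO, 81.3 and 95.6 in WT, 43.8, 73.5 and 104 in KO, and 58.6 and 79.2 in KH. Both DKO libraries were below WT and KH, but KO replicate 1 overlapped them, and the difference of DKO from WT was -1.13 ± 0.39 (SE; limma adjusted p = 0.263). The other subunits and Kdsr were closer to WT in their means, a difference between genes that was not tested. Sptlc2 averaged 63.5 FPKM in DKO and 61.8 in WT, and Sptlc3 53.4 and 78.2 (-0.54 ± 0.45, SE; limma adjusted p = 0.601). Kdsr averaged 9.07 and 9.12.

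Ceramide synthases join the base to fatty acids of different length. Cers3, which makes the ceramides of ultra-long chains needed for the barrier, was the most abundant at a mean of 62 FPKM over the 9 libraries, against 9.05 for Cers5, 7.82 for Cers2, 3.57 for Cers6 and 0.933 for Cers4. Cers3 averaged 63.9 FPKM in DKO and 73.2 in WT, and its libraries overlapped. Cers2, which prefers very long chains and is found in most tissues, was at 6.93 and 12.4 FPKM in DKO, 5.02 and 4.97 in WT, 11.3, 6.57 and 5.35 in KO, and 7.92 and 9.97 in KH. All 7 mutant libraries were above both WT libraries, and the difference of DKO from WT was 0.78 ± 0.36 (SE; 1.93-fold; limma adjusted p = 0.381). Cers2 was highest in KO replicate 1 and DKO replicate 2, both low in granular markers, although KH replicate 1, also low, was below KH replicate 2. The gene overlaps Setdb1 on the opposite strand, and its value is uncertain if strand was not used in counting.

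Degs1 encodes the desaturase that completes ceramide, and Degs2 the related enzyme that adds a hydroxyl group to give phytoceramide. Degs1 was abundant, between 92.8 and 201 FPKM, with overlapping genotypes. Degs2 was at 6.76 and 3.65 FPKM in DKO, 13 and 16.5 in WT, 1.77, 3.22 and 6.74 in KO, and 1.01 and 5.02 in KH. All 7 mutant libraries were below both WT libraries, and the DKO mean of 5.21 FPKM was not below those of KO (3.91) and KH (3.01). The differences from WT were -1.81 ± 0.54 in KO, -2.17 ± 0.59 in KH and -1.38 ± 0.59 in DKO (SE; limma adjusted p = 0.853, 0.98 and 0.352), and these 3 comparisons share the WT libraries. Degs2 overlaps Evl on the opposite strand. Fa2h, the fatty acid 2-hydroxylase, was low throughout, at 0.0843 and 0.0248 FPKM in DKO, 0.152 and 0.216 in WT, 0.195, 0.134 and 0.153 in KO, and 0.0325 and 0.374 in KH. Its 2 KH libraries differed more from each other than the DKO and WT means of 0.0546 and 0.184 FPKM did.

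The elongases Elovl1 and Elovl4 held the highest means of the list, at 975 and 290 FPKM over the 9 libraries. Elovl1, which extends saturated chains, was at 1115 and 631 FPKM in DKO, 1157 and 1224 in WT, 470, 1010 and 1390 in KO, and 597 and 1184 in KH. The spread within KO was thus larger than the difference between the DKO and WT means of 873 and 1190 FPKM (limma adjusted p = 0.705). Elovl1 overlaps Cdc20 on the opposite strand. Elovl4, which makes the ultra-long chains of acylceramide, was at 332 and 221 FPKM in DKO, 359 and 390 in WT, 157, 281 and 345 in KO, and 206 and 320 in KH, below WT in all 7 mutant libraries. Its difference of DKO from WT was -0.46 ± 0.40 (SE; limma adjusted p = 0.619). Slc27a4, a fatty acid transport protein that activates these chains, was at 44.9 and 26.3 FPKM in DKO, 62.9 and 65.2 in WT, 28.9, 53.7 and 68.8 in KO, and 30.6 and 59.6 in KH. Elovl7 averaged 48.3 FPKM in DKO and 71.1 in WT. The 4 genes of this step each had both DKO libraries below both WT libraries, as did 26.4% of all genes, and their adjusted p lay between 0.423 and 0.705.

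Acylceramide, the lipid particular to the barrier, needs an omega-hydroxylase of fatty acids (Cyp4f39), the transacylase Pnpla1 that adds linoleate, and its cofactor Abhd5. Cyp4f39 was at 23.7 and 24.3 FPKM in DKO, 35.7 and 53.7 in WT, 15.4, 21.1 and 58.6 in KO, and 19.7 and 31 in KH. The DKO libraries differed little from each other, while KO replicate 3 was above WT, and the difference of DKO from WT was -0.84 ± 0.54 (SE; limma adjusted p = 0.507). Pnpla1 averaged 26.1 FPKM in DKO and 39.2 in WT. Abhd5 averaged 94.8 and 101, and its libraries overlapped.

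Storage of ceramide as glucosylceramide and sphingomyelin, and its release from them, held the called gene Smpd1. Smpd3, which encodes a neutral sphingomyelinase, was at 45.6 and 22.6 FPKM in DKO, 81.1 and 61.7 in WT, 23.5, 39.7 and 55.6 in KO, and 22.6 and 72.7 in KH. Within each mutant genotype its libraries stood in the order of their granular sums, as did those of Smpd1. The difference of DKO from WT was -1.11 ± 0.58 for Smpd3 (SE; limma adjusted p = 0.427), and Smpd3 overlaps Prmt7 on the opposite strand. Psap, the precursor of the saposins that activate lysosomal lipid hydrolases, was at 199 and 180 FPKM in DKO, 290 and 278 in WT, 200, 211 and 250 in KO, and 190 and 197 in KH. All 7 mutant libraries of Psap were below WT, between 180 and 250 FPKM, and the difference of DKO from WT was -0.58 ± 0.21 (SE; limma adjusted p = 0.28).

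Sgms1, a sphingomyelin synthase, was at 7.57 and 8.89 FPKM in DKO, 14.2 and 20.1 in WT, 8.26, 5.6 and 14.5 in KO, and 9.17 and 8.42 in KH. Apart from KO replicate 3, the mutant libraries were below WT, and the difference was -0.87 ± 0.34 in KO, -0.87 ± 0.37 in KH and -0.96 ± 0.37 in DKO (SE; limma adjusted p = 0.853, 0.98 and 0.31). Sgms2, the second synthase, averaged 0.505 FPKM in DKO and 0.442 in WT. Gba2, a glucosylceramidase outside the lysosome, was at 37.8 and 26.9 FPKM in DKO, 62.4 and 49.5 in WT, 16.3, 27.2 and 43.1 in KO, and 15.8 and 78.3 in KH. The KH libraries lay on either side of all others, and Gba2 overlaps Creb3 and Rgp1. Ugcg, which makes glucosylceramide, averaged 31.8 FPKM in DKO and 31.5 in WT.

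All 5 genes for the breakdown of ceramide to sphingosine and beyond had both DKO libraries below both WT libraries, which held for 26.4% of all genes. At an unadjusted limma p below 0.05, 3 of them were lower in DKO, beside 7.6% of all genes, and the median difference was -1.02 on the log2 scale. Acer1, the alkaline ceramidase of the epidermis, was at 78.3 and 49 FPKM in DKO, 147 and 163 in WT, 55.9, 113 and 135 in KO, and 58.6 and 97.9 in KH. All mutant libraries were below WT, DKO differed from WT by -1.31 ± 0.44 (SE; 2.43-fold; limma adjusted p = 0.248), and KO and KH by -0.70 ± 0.40 and -1.02 ± 0.44 (SE; limma adjusted p = 0.853 and 0.98). Asah1, the acid ceramidase of lysosomes, was at 26.1 and 18.4 FPKM in DKO, 43.3 and 43.1 in WT, 29.5, 35.2 and 55.5 in KO, and 33.4 and 48.2 in KH. Here the KO and KH libraries spanned WT and the DKO libraries were below all others. Differences of DKO were -0.95 ± 0.32 from WT, -0.79 ± 0.29 from KO and -0.84 ± 0.32 from KH (SE; limma adjusted p = 0.259, 0.573 and 0.749).

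Acer2, a ceramidase of the Golgi, was at 5.35 and 4.73 FPKM in DKO, 9.99 and 14.9 in WT, 5.96, 5.89 and 8.98 in KO, and 6.08 and 6.09 in KH. Its DKO libraries were below and its WT libraries above all others, and it had the lowest p of the list after Smpd1, at -1.13 ± 0.27 (SE; limma adjusted p = 0.131). The table carries a separate row under this symbol at the same locus, which ran the other way, at 2.32 and 0.0174 FPKM in WT and 4.02 and 4.59 in DKO. Reads shared by the 2 rows may not have been separable, so the level of Acer2 is uncertain. Sgpl1, the lyase that removes sphingosine-1-phosphate, was at 68.4 and 44 FPKM in DKO, 112 in both WT libraries, 48.4, 58.7 and 105 in KO, and 48.9 and 112 in KH. KH replicate 2 reached the WT level to the digits shown, and the difference of DKO from WT was -1.02 ± 0.45 (SE; limma adjusted p = 0.368). Acer3 averaged 11.8 FPKM in DKO and 16.6 in WT.

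Transport into lamellar bodies and attachment of lipid to the cornified envelope gave values in both directions. Abca12 was at 21.4 and 15.4 FPKM in DKO, 53.5 and 69.7 in WT, 20.1, 23.4 and 68.9 in KO, and 20.3 and 49.9 in KH. Both DKO libraries were below WT, and so were 2 of 3 KO libraries and both KH libraries, while KO replicate 3 lay between the 2 WT libraries. The differences from WT were -1.69 ± 0.59 in DKO, -0.91 ± 0.54 in KO and -0.92 ± 0.59 in KH (SE; limma adjusted p = 0.266, 0.853 and 0.98). The mean of Abca12 was 18.4 ± 4.25 FPKM in DKO (SD, n = 2) and 61.6 ± 11.4 in WT (SD, n = 2), 3.35-fold apart. Alox12b and Aloxe3 encode lipoxygenases that oxidise the linoleate of acylceramide and are neighbours on chromosome 11, with Aloxe3 ending 7873 bases before Alox12b starts. Alox12b was at 290 and 201 FPKM in DKO, 210 and 204 in WT, 119, 221 and 256 in KO, and 124 and 294 in KH. Aloxe3 averaged 101 FPKM in DKO and 85.9 in WT. The fitted differences of DKO from WT were 0.22 ± 0.47 for Alox12b and 0.25 ± 0.70 for Aloxe3 (SE; limma adjusted p = 0.856 and 0.896), and without DKO replicate 1 that of Alox12b turned to -0.04. Sdr9c7, the dehydrogenase that follows them, averaged 97.6 and 140 FPKM.

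Lipases of the upper epidermis and the triglyceride enzyme Dgat2 were lower on average in DKO than in WT in each case, with limma adjusted p between 0.385 and 0.655. Dgat2 was at 184 and 128 FPKM in DKO, 290 and 330 in WT, 117, 205 and 312 in KO, and 133 and 251 in KH. Both DKO libraries were below WT, 1.99-fold on average, but also within the range of KO (-1.01 ± 0.47 from WT, SE; limma adjusted p = 0.385). Lipk, Lipn and Lipm lie next to each other on chromosome 19. Lipk was at 57.8 and 28.5 FPKM in DKO, 70.8 and 88.2 in WT, 33.6, 64.3 and 129 in KO, and 46.3 and 94.3 in KH. Lipn was at 29.1 and 18.4 FPKM in DKO, 33.6 and 46.5 in WT, 17.6, 21.8 and 77.8 in KO, and 24.1 and 61.1 in KH. For both lipases, KO replicate 3 and KH replicate 2 were above WT and KO replicate 1 was among the lowest. Lipm averaged 155 FPKM in DKO and 213 in WT.

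Embryos that lacked Esrp1 and kept 1 or both Esrp2 alleles were compared with WT in the same way. In KO against WT 35 of the 39 genes had a negative fitted difference, with a median of -0.41 on the log2 scale, and 3 genes (Acer2, Degs2 and Sgms1) were lower at an unadjusted limma p below 0.05, beside 2.27% of all genes. The difference was negative for 49.9% of all tested genes and for 54.7% of those with a mean of at least 5 FPKM. These values rested largely on KO replicate 1: without it 28 genes were lower, with a median of -0.09, and without KO replicate 3 the median was -0.71. The number at the unadjusted threshold fell to 0 when WT replicate 2 was left out and to 2 without KO replicate 1 or 2 or either DKO replicate. It was 5 without either KH replicate and 10 on leaving out KO replicate 3. The libraries of 11 genes did not overlap and were lower in KO, beside 12.1% of all genes. In KH against WT 35 genes had a negative difference, with a median of -0.47, and 5 genes (Acer1, Acer2, Degs2, Psap and Sgms1) were lower at that threshold, beside 2.09% of all genes. The difference was negative for 49.6% of all tested genes and for 59.7% of those with a mean of at least 5 FPKM. These values rested on KH replicate 1, without which 22 genes were lower and 17 higher, with a median of -0.02, while without KH replicate 2 the median was -0.76. The number at that threshold was 1 without KH replicate 1 or WT replicate 2, 3 without WT replicate 1 or either DKO replicate, and 8 without KH replicate 2. No shares of all genes from the fits without a library are given here. KO replicate 1 and KH replicate 1 are among the 3 libraries with low granular marker sums. All 7 granular markers had negative fitted differences from WT in both comparisons, with medians of -0.52 in KO and -0.53 in KH. With the granular sum as a covariate the medians of the 39 genes were -0.20 in KO and -0.07 in KH. That sum was itself lower on average in KO (13552 FPKM) and KH (11785) than in WT (15913). The covariate can therefore also remove part of a difference between genotypes. The summed melanocyte markers were at 83.4, 79.9 and 68 FPKM in KO and 152 and 57.3 in KH, all above both WT libraries. In each comparison 5 of the 6 markers lay above WT without overlap. This held for 2126 of all 16897 tested genes in KO and for 2577 in KH. In KO Tyrp1 lay below WT without overlap, at 0.986, 0.995 and 0.868 FPKM against 1.02 and 0.997. In KH Pmel overlapped WT. The part of these markers in the differences was not tested. The libraries of 19 genes did not overlap and were lower in KH, beside 16.6% of all genes. The 2 comparisons share the WT libraries, and none of these genes passed the adjusted threshold.

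Among the mutant genotypes, where KO also differed from the others in sex, Smpd1 and Asah1 were lower in DKO than in KO at an unadjusted limma p below 0.05, beside 3.13% of all genes, and lower in DKO than in KH, beside 2.51% of all genes. The median difference over the 39 genes was -0.10 for DKO from KO, -0.09 for DKO from KH and -0.01 for KH from KO.

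Of 50 further genes of sphingolipid and barrier lipid metabolism, 49 were found in the table and 47 passed the filter. Elovl5, an elongase of polyunsaturated fatty acids, was called in DKO against WT. It was at 3.55 and 3.19 FPKM in DKO, 11.7 and 12 in WT, 5.04, 4.51 and 5 in KO, and 5.72 and 6.13 in KH. All 7 mutant libraries were at most 6.13 FPKM, and the differences from WT were -1.55 ± 0.19 in DKO, -1.13 ± 0.18 in KO and -0.89 ± 0.19 in KH (SE; limma adjusted p = 0.00793, 0.2 and 0.697). Pla2g4e, a phospholipase that makes N-acyl phospholipids, was at 17.6 and 23.4 FPKM in DKO, 10.1 and 7.64 in WT, 1.46, 3.71 and 3.78 in KO, and 1.65 and 3.44 in KH. It was called higher in DKO than in KO (2.48 ± 0.36, SE; limma adjusted p = 0.0199), with the difference in sex given above, and than in KH (2.63 ± 0.39, SE; limma adjusted p = 0.0295), but not than in WT (1.12 ± 0.39, SE; limma adjusted p = 0.267). The call of Elovl5 was lost without DKO replicate 1 (limma adjusted p = 0.0553), DKO replicate 2 (0.0661), WT replicate 1 (0.103) or WT replicate 2 (0.121). That of Pla2g4e against KO was lost without DKO replicate 1 or 2 (0.139 and 0.194), KO replicate 2 or 3 (0.0533 and 0.0515) or WT replicate 1 or 2 (0.0526 and 0.073). Against KH it was lost without DKO replicate 1 or 2 (0.165 and 0.23), KH replicate 1 or 2 (0.114 and 0.0544), KO replicate 2 or 3 (0.0587 and 0.0571) or WT replicate 1 or 2 (0.0805 and 0.114). At an unadjusted limma p below 0.05, 8 of the 47 were lower in DKO than in WT, beside 7.6% of all genes, and 3 were higher, beside 6.15%.

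The other genes with the lowest p among them were not called. Ormdl1, an inhibitor of serine palmitoyltransferase, averaged 12.9 FPKM in DKO and 32 in WT (-1.25 ± 0.29, SE; limma adjusted p = 0.123). Of the 24 alternatives, 2 did call Ormdl1, arrayWeights and a fit of only these 2 genotypes (lowest limma adjusted p = 0.0309). Its paralog Ormdl3 averaged 15.5 and 23.3 FPKM, and the small activating subunit Sptssa 139 and 245 (limma adjusted p = 0.215 and 0.217). Sgpp2, a sphingosine-1-phosphate phosphatase, averaged 1.84 FPKM in DKO and 0.688 in WT (limma adjusted p = 0.246).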

How the data were processed

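RNA from E18.5 trunk epidermis was sequenced by the authors as stranded, poly(A)-selected paired reads. The authors mapped the reads to mm10 with TopHat v1.4.1 and estimated FPKM per gene with Cuffdiff v2.2.0, and the deposited table holds these FPKM values for 9 libraries. How Cuffdiff scaled libraries and used strand is not given in the sources used here. The file carries no counts, so no counting intervals could be given. Genes with a mean above 0.1 FPKM in at least 1 genotype were fitted as log2(FPKM + 1), all 9 libraries together, with limma 3.58.1 in R 4.3.3 (4 genotype means, intensity trend, 5 residual degrees of freedom), and p-values were adjusted by Benjamini-Hochberg over all 16897 genes in each comparison. A pseudocount of 1 understates the fold change of genes with low FPKM. Replicates are separate embryos of a genotype as labelled.

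The genes and lists were chosen with earlier results of these data known. Values for each library are given for genes called in any comparison, the 10 with the lowest p in DKO against WT, the 5 with the highest mean, and those with a 1.5-fold difference in mean and libraries that did not overlap in DKO against WT. Further genes of the pathway are named if called or among the 5 lowest p. The 12 marker lists also held basal, spinous, sebaceous, immune, melanocyte, skeletal muscle, red blood cell and hair follicle genes. Their sums in DKO and WT averaged 6854 and 5273 FPKM for basal, 48036 and 68860 for spinous, 11.4 and 19.8 for sebaceous, 17.3 and 6.23 for immune, 151 and 45.7 for melanocyte, 8.31 and 10.5 for skeletal muscle, 821 and 306 for red blood cell and 602 and 433 for hair follicle genes, and no gene of these lists was called in DKO against WT. Alternatives were other pseudocounts, filters, scalings, weights and variance models, the replicate block, and leaving out each library. Calls were tested on simulated data of 16897 genes for DKO against WT: among 200 genes given a log2 change of 1.5, 45.5% were recovered, with 7 false calls, and among 200 given one of 3, 94%, with 16 false calls. The changed genes were drawn from those with higher mean levels, so recovery at low levels was not measured. Noise was drawn independently for each gene and library. Shifts shared by many genes of a library, as with the granular markers, were therefore not simulated. Tables were made in Python 3.11.15 (pandas 2.3.3, numpy 2.4.6) and plots in matplotlib 3.10.9.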

Additional observations from a re-analysis of the deposited data

Results flagged for a closer look

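Pla2g4e was picked out because its level in DKO differed from both other genotypes that lack Esrp1. Its log2 fold change was 2.48 for DKO against KO and 2.63 for DKO against KH, with both DKO libraries above all 7 others, and the 2 comparisons share the DKO libraries. The DKO and KH embryos were male and the KO embryos female. Against WT, the fitted differences were -1.36 ± 0.36 in KO and -1.51 ± 0.39 in KH (SE; limma adjusted p = 0.853 and 0.98) and 1.12 ± 0.39 in DKO (SE; limma adjusted p = 0.267), none past the threshold.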

How the results depend on the processing

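In DKO against WT 1 of the 39 genes was called. The count was 0 without the filter, in eBayes without a trend, with the replicate block by either numbering and without the 3 libraries of lowest granular sum, and 2 with arrayWeights (Smpd1 and Acer2, limma adjusted p = 0.0447 for Acer2) and in a fit of only the 2 genotypes (Smpd1 and Abca12, limma adjusted p = 0.0215 for Abca12). Leaving out each library gave 0 to 1. In DKO against KO the count went from 0 to 1 with TPM, arrayWeights, quantile normalization and the granular covariate, and ranged from 0 to 1 on leaving out each library. In DKO against KH it went from 0 to 1 with TPM, which moved the median of all genes by -0.112, and with the granular covariate. The gene added was Smpd1 in each case. KO against WT, KH against WT and KH against KO gave 0 under all 24 alternatives. The fold change of Smpd1 in DKO against WT ranged from -3.64 to -2.35 and its adjusted p from 0.000817 to 0.359. Signs turned for Alox12b (-0.59 with the block by description numbers, -0.04 without DKO replicate 1, up to 0.48 on leaving out other libraries) and Elovl1 (0.05 with the granular covariate), and for no other of the 22 genes shown by library. The causes were not tested. Libraries carry one number in the sample titles and another in the descriptions, and no source used here says that either marks a litter or day. Deviations of same-numbered libraries of different genotypes correlated between -0.567 and 0.468 by title number (4 of 12 pairs over 0.1) and between -0.23 and 0.543 by description number (4 of 6 pairs). By description number the 4 pairs of mutant libraries were at 0.435, 0.543, 0.468 and 0.335, and the 2 pairs with WT at -0.23 and 0.039. Neither numbering was taken as a pairing in the main fit. Variation shared by mutant libraries of the same description number was not tested. Smpd1 had an adjusted p of 0.101 with the title block and, in a fit added after seeing the data with 1 residual degree of freedom, 0.195 with the description block, in which DKO and WT share no number. In DKO against WT the description block gave 36 of the 39 genes lower, 16 of them at an unadjusted p below 0.05, and a median of -1.0, while the title block gave 30, 12 and -0.56. The median difference from WT was -0.71 in KO with the title block (8 genes lower at that p), and -1.08 in KO (23 genes) and -0.71 in KH (12 genes) with the description block. Shares of all genes below that p in the block fits are not given here, so these counts have no matching background. With 2 or 3 libraries a genotype and no read counts, a p above the threshold does not show that levels were equal. Of the further genes, the call of Elovl5 was also lost with the replicate block by title or description (adjusted p = 0.0677 and 0.49), TPM (0.0645) and without the 3 libraries (0.133). Pla2g4e against KO was lost with the blocks (0.062 and 0.297), no filter (0.206) and without the 3 libraries (0.136), and against KH with the blocks (0.07 and 0.328), no filter (0.262), arrayWeights (0.059), no trend (0.0528), only the 2 genotypes (0.114) and without the 3 libraries (0.16).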
